A study of Rattus norvegicus with 3 samples.

Results

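The regions described here are 628 stretches of the rat genome in which DLX3 peaks lying off the promoter mark H3K4me3 crowd together. They were chosen by peak position alone: DLX3 peaks sharing no base with an H3K4me3 peak were kept, neighbours separated by at most 12.5 kb on the same chromosome were stitched, and stitched units of 10 or more peaks were retained. Of the 69263 DLX3 peaks, 51686 lay off the mark. They formed 22439 stitched units, single peaks included, and the 628 regions (2.80% of the units) held 11046 peaks, or 21.4% of the off-mark peaks (95% Wilson interval 21.02 to 21.7%).

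DLX3 is a homeodomain transcription factor, a protein that binds DNA through a helix-turn-helix fold, and its mutation in people causes tricho-dento-osseous syndrome, in which enamel is thin or hypomature. H3K4me3, trimethylated lysine 4 of histone H3, marks the promoters of genes that are active or poised. Sites bound by a factor away from that mark are often enhancers, and clusters of such sites are commonly joined at the same 12.5 kb distance before they are ranked by signal as super-enhancers. The deposited lists hold peaks and no signal, so that ranking was not made and the name is not used here.

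The tissue was enamel organ, the epithelium containing the enamel-secreting ameloblasts, taken from wild-type adult rats, whose lower incisors grow throughout life. Of the 3 libraries, the ChIP of DLX3 and the ChIP of H3K4me3 were analysed, and the input without antibody was not used here. Each antibody has 1 library. Values therefore carry no replicate error, the spread between animals is unknown, and no p-value is given. Whether animals were pooled, and their strain, are not given in the sources used here, and the antibody field of the labels reads anti-DLX4 and anti-H3K4me4, so the titles were followed. Depth is unknown because the lists hold no read counts. Peak scores are the authors' deposited values, from 50 to 3218 in the DLX3 list and from 50.01 to 3233 in the H3K4me3 list, and were compared only within a list. Positions are in rn5, counted from 1. No genes or sequences are attached to them, since an rn5 annotation and genome were not used here. Wilson intervals cover counting error only, and neighbouring peaks are not independent.

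The regions were long and only partly filled by peaks. Their length ran from 11.4 to 353.7 kb, with a median of 62.2 kb and quartiles of 48.4 and 84.3 kb. Lengths of 50 kb or more were found in 453 regions and lengths of 100 kb or more in 100. Together the regions spanned 44.7 Mb, 1.54% of the chromosome span covered by the lists. The number of peaks per region ran from 10 to 96, with a median of 14 and quartiles of 11 and 20. Peaks covered a median of 31.8% of a region (quartiles 24.4 and 42.3%, lowest 11.2%, highest 85.8%), and in 97 regions they covered more than 50%. Peak number and length fall out of the rule in part and are given as a description.

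Inside the regions, most neighbouring peaks lay much closer than the rule required. The 10418 gaps had a median of 1668 bp and quartiles of 449 and 4226 bp, and 38.2% of them were 1 kb or shorter. Gaps over 5 kb made up 20.3%. At least 1 pair of peaks within 200 bp of each other was present in 499 regions (79.5%), so some adjoining peaks may be parts of 1 wider enriched stretch. Beyond the ends of a region the next off-mark peak lay a median of 23.9 kb away, where the rule sets a minimum of more than 12.5 kb.

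At the edge of the rule, 93 regions had exactly 10 peaks, a median length of 42.5 kb and a median summed score of 1183. The 125 units with 9 peaks, which the rule left out, had 39.6 kb and 995.3. Values on the 2 sides of the limit were thus close.

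The regions were then compared with the same stitching after local moves. Each off-mark peak was shifted by up to 100 kb to either side, at its width, on its chromosome and off H3K4me3, and the shift was repeated to give 200 moved sets of 51686 peaks each. The moved sets held 370.3 ± 12.6 regions (SD over sets; lowest 319, highest 401), so the deposited positions gave 1.70 times as many. The share of peaks in regions was 11.4% ± 0.302 in the moved sets against 21.4%. The surplus was in the fuller units. Units of 10 to 14 peaks numbered 340 against 229.9 ± 12.7, those of 20 to 29 peaks 95 against 45.2 ± 5.85, and those of 30 or more 66 against 26.7 ± 3.27. Single peaks were fewer than in the moved sets, 13316 against 16109 ± 93.4. The fullest single unit was not outside the moved sets: 96 peaks, where the highest of any moved set was 97.

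**Figure D1:**
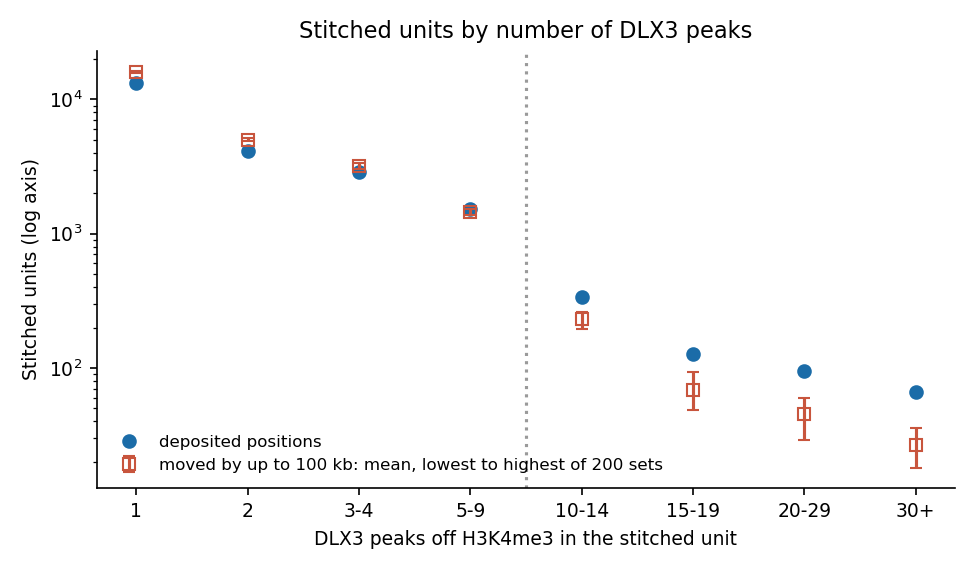
Number of stitched units (vertical log axis) by the number of off-mark DLX3 peaks they hold (horizontal axis). Filled circles are the deposited positions, open squares the mean of 200 sets of locally moved peaks with bars from the lowest to the highest set, and the dotted line is the limit of 10 peaks. Circles lie above the bars in each of the 4 classes of 10 or more peaks and below them for units of up to 4 peaks.

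The size of this surplus depended on how far and which peaks were moved. With moves of up to 25 kb, the ratio of deposited to moved region number was 1.09, with up to 50 kb 1.30 and with up to 200 kb 2.46. When all 69263 DLX3 peaks were moved and the whole rule was then applied, a mean of 63520 peaks fell off the mark, 520.1 ± 15.5 regions formed, and the ratio was 1.21. In that version more peaks enter the stitching than in the deposited data. Moved peaks could also fall on each other, which 7.59% of neighbouring pairs did and deposited peaks never do.

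Once formed, regions from moved peaks were close to the deposited ones in median length and median summed score, but not in each measure. Median length was 62244 bp in the deposited positions and 62486 bp ± 1567 in the moved sets. Median summed score was 1862 against 1748 ± 46.1, within the range of the sets (1640 to 1866) but near its top. The upper quartile of peak number was 20 against 17.5 ± 0.639 (highest 19). Median peaks per kb were 0.243 against 0.221 ± 0.00327 (highest 0.229). Spacing differed too: the median gap inside regions was 1668 bp against 2346 bp ± 70.8, and gaps over 5 kb made up 20.3% against 29.6% ± 0.622. Gaps of 1 kb or shorter differed less, 38.2% against 35.8% ± 0.649. This share is not a like comparison, because moved peaks could overlap. Over all off-mark peaks, 7.59% of neighbouring pairs overlapped in the moved sets, against 0 in the deposited positions. Such pairs may count among the short gaps of the moved sets and lower their median gap. Gap shares without overlapping pairs were not computed. Regions covered for more than 50% by peaks were 15.4% of the deposited regions and 9.21% ± 1.35 of the moved ones. Deposited regions were less often close to one another, 15.1% having a second region within 25 kb against 23.7% ± 2.53 in the moved sets (lowest 15.9%).

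Summed score followed peak number. It ran from 625.7 to 19548, with a median of 1862 and quartiles of 1333 and 2688, and across the 628 regions its rank correlation with peak number was 0.815, a description in which both quantities share the peaks. The rank correlation of peak number with the median score of a region's peaks was 0.102. Most regions did not rest on 1 dominant peak. The strongest peak held a median of 18.6% of the summed score (quartiles 14.2 and 24.0%, highest 49.1%), and it held more than 25% in 137 regions. A median of 4 peaks was needed to reach 50% of the sum. The strongest peak was not concentrated in the middle of the region: its centre lay in the central 50% of the length in 302 regions (48.1%, Wilson interval 44.2 to 52.0%), where an even spread gives 50%. First and last peaks of a region had lower scores than inner ones, with medians of 82.7 and 94.4. They were also narrower, with medians of 1040.5 and 1145 bp, and the part of width in the score was not tested.

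**Figure D2:**
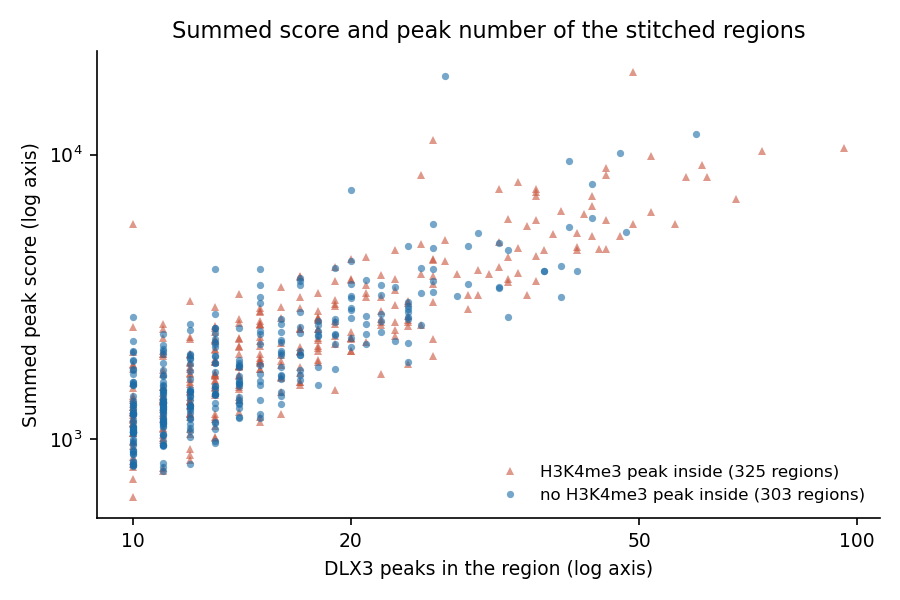
Summed DLX3 score of each region (vertical log axis) against its number of off-mark DLX3 peaks (horizontal log axis). Triangles are the 325 regions with an H3K4me3 peak inside and circles the 303 without, and both kinds overlap in sum over most of the range of peak number. Single regions stand above the others of like peak number, among them those at 10, 20, 25, 26, 27 and 49 peaks.

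Regions with the lowest permitted number of peaks, 10, differed widely in sum. Their summed scores ran from 625.7 to 5700. The highest belonged to a region of 52.9 kb on chromosome 1 (274457412 to 274510326), picked out after its values were seen. Its peaks had a median width of 3456 bp and a median score of 471.5, the highest median score of any of the 628 regions. The second highest sum among them, 2689, belonged to the shortest region of all, 11.4 kb on chromosome 1 (13498430 to 13509806). There 10 narrow peaks with a median width of 382.5 bp stood at 0.879 peaks per kb, and the nearest H3K4me3 peak was 85.3 kb away.

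The regions of highest summed score were of several kinds. The first, on chromosome 9 (17540736 to 17673624), was 132.9 kb long with 49 off-mark peaks and a summed score of 19548. Its strongest peak, 7574 bp wide, scored 1434, and the next scored 1370 and 1335, so 11 peaks were needed for 50% of the sum. It spanned 4 H3K4me3 peaks with scores between 51.1 and 141.2, each overlapped by 1 DLX3 peak. Outside it, an H3K4me3 peak scoring 3100, with a DLX3 peak scoring 1993 on it, reached to within 10 kb of its start. Weaker H3K4me3 peaks, scoring 131.02, 70.76 and 75.95, lay nearer on that side.

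The second, on chromosome 6 (135294374 to 135380102), reached nearly the same sum, 18845, with 27 peaks in 85.7 kb. Its 3 strongest peaks scored 2677, 2362 and 2321, and the last of these was 10847 bp wide. DLX3 peaks covered 85.8% of it, the highest coverage of the 628 regions, and 17 of its gaps were 200 bp or shorter. No H3K4me3 peak lay inside, but 1 with a score of 1314 and no DLX3 peak on it began 851 bp beyond its end. Just before its start lay a DLX3 peak on the mark, scoring 1367, which the rule left out. In the chromosome 9 region the peaks covered 69.7% and 24 gaps were that short, so both regions consist largely of adjoining peaks.

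The third, on chromosome 13 (77831401 to 77977273), held 60 peaks in 145.9 kb and a sum of 11813. Its strongest peaks lay at 1 end, scoring 1711, 1257 and 977.0 and starting 4.54, 10.6 and 20.8 kb from the start of the region. The median peak scored 113.6, and 9 peaks were needed for 50% of the sum. No H3K4me3 peak lay inside, and the nearest, with a score of 2009, was 1849 bp away on the side of those strong peaks. The fourth, on chromosome 11 (36346288 to 36436344), had 26 peaks in 90.1 kb and a sum of 11275. A single peak of 12824 bp scored 2636 and held 23.4% of that sum. One weak H3K4me3 peak, with a score of 63.3, lay inside. Just past the region's end began a DLX3 peak on the mark, scoring 150.2, which the rule left out.

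**Figure D3:**
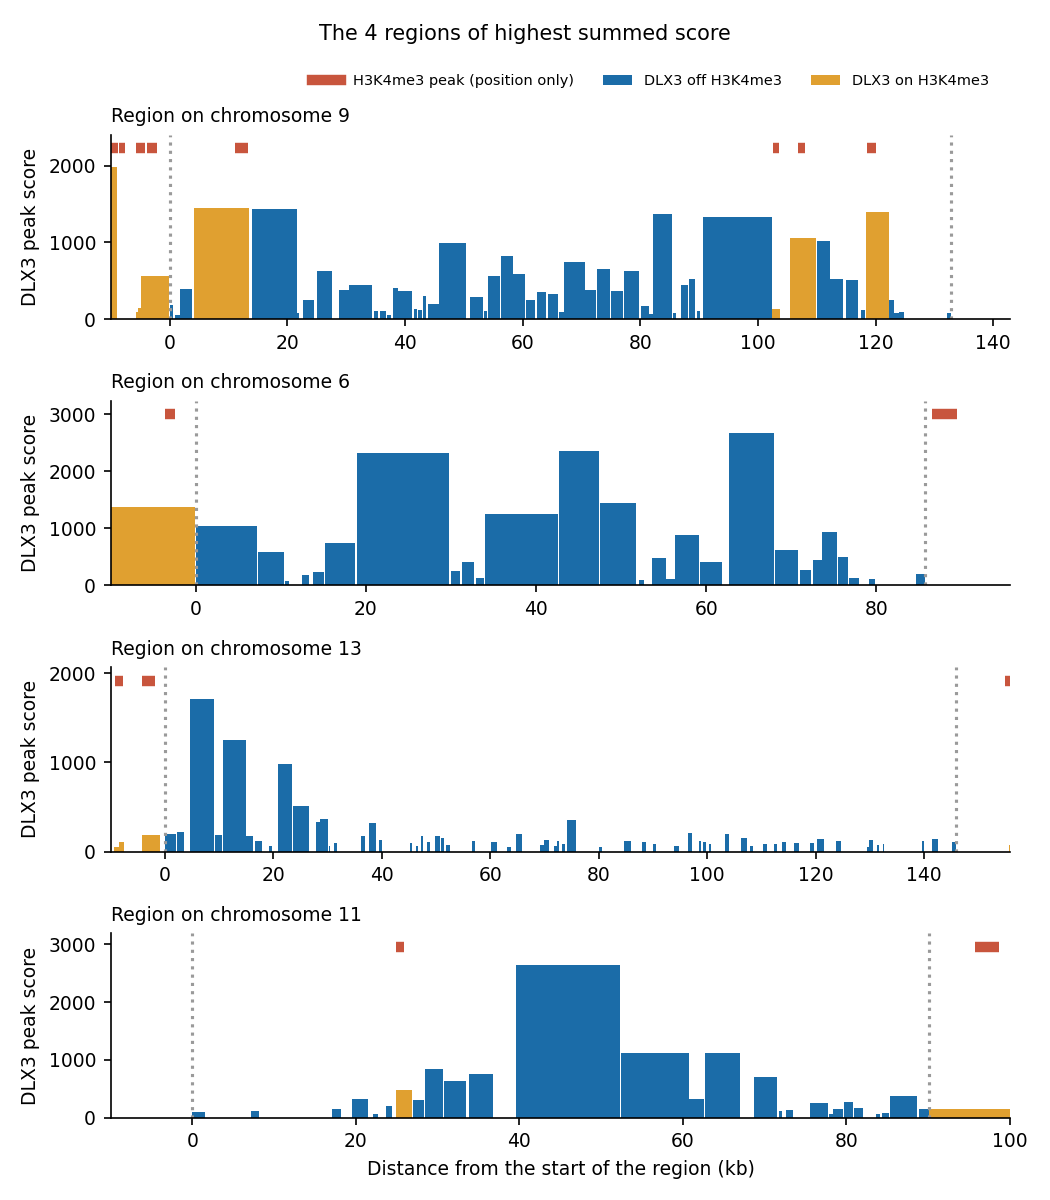
DLX3 peaks of the 4 regions of highest summed score, drawn at their widths (horizontal axis, distance from the region's start in kb) with the peak score as height. Blue bars are peaks off H3K4me3, orange bars peaks on it, red blocks mark positions of H3K4me3 peaks without their score, and dotted lines are the region's ends. Strong peaks are spread along the chromosome 9 and 6 regions, and on chromosome 13 the strongest lie within 30 kb of the start.

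In the other 6 of the 10 highest sums the strongest peak held between 4.28 and 11.5% of the sum. The fifth, on chromosome 10 (74083226 to 74436949), was the longest region and had the most peaks, 96 in 353.7 kb. Its sum was 10541, while its median peak scored 80.9 and its strongest 451.5, so 26 peaks were needed for 50% of the sum. The sixth, on chromosome 4 (6587445 to 6826172), had 74 peaks in 238.7 kb, a sum of 10337 and 7 H3K4me3 peaks inside, of which 2 scored 1346 and 2343 and the rest no more than 77.0. These figures place 2 strong promoter marks within a long run of moderate DLX3 peaks. On chromosome 16, a region with 47 peaks (50090119 to 50205857, sum 10098) had no H3K4me3 peak within 6054 bp. A second region there with 52 peaks (1733799 to 1937533, sum 9872) spanned 7. A region with 40 peaks on chromosome 5 (83175491 to 83333755, sum 9525) ended 329 bp short of an H3K4me3 peak scoring 928.7. The tenth, on chromosome 9 (63262801 to 63424104, sum 9223), had 61 peaks and 7 H3K4me3 peaks, 6 of them packed at one end between 63415563 and 63422545. The 10 regions together held 7.93% of the score summed over all 628.

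Among the longest and fullest regions, 3 others were outside the 10 highest sums. On chromosome 4, a region of 259.6 kb (194210644 to 194470291) had 68 peaks with a median score of 74.4. A further region on the same chromosome was 224.2 kb long (204825218 to 205049444), with 58 peaks and a median score of 105.4. On chromosome 13, a region of 221.0 kb (39934808 to 40155834) had 62 peaks, the strongest scoring 983.2. They spanned 2, 1 and 1 H3K4me3 peaks, none scoring above 385.5, so long runs of DLX3 peaks occurred with little of the promoter mark.

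DLX3 peaks inside the regions were somewhat stronger and wider than the other off-mark peaks. The rule did not use the score, but its gaps run from peak edge to peak edge, so width enters it. Median score was 92.7 (quartiles 65.7 and 153.4) for the 11046 member peaks and 80.7 (quartiles 60.9 and 127.2) for the other 40640. Median width was 1131 bp against 843 bp, and 1112 bp ± 9.23 against 865.7 bp ± 0.998 in the moved sets. Both increased with the number of peaks in the unit: the median score was 75.9 for single peaks, 80.3 in pairs, 86.1 in units of 5 to 9, 90.2 in units of 10 to 14 and 95.9 in units of 30 or more. Median width was 728 bp for single peaks and 1010 bp in units of 5 to 9, and then lay between 1113 and 1146 bp in the larger classes.

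The score difference moved with width. In 4 equal classes of width over all off-mark peaks, members against others had median scores of 66.1 against 65.1 up to 650 bp, 71.0 against 75.3 up to 888 bp, 84.3 against 89.0 up to 1255 bp, and 139.5 against 124.7 above that. Members were thus lower in the 2 middle classes and higher mainly among the widest peaks. The open class above 1255 bp did not match width: at the median, members there measured 1803.5 bp and other peaks 1605 bp. Whether the higher scores in that class go beyond this gap in width was not tested. Over all widths, moved sets gave nearly the same score difference as the deposited positions, 11.1 ± 0.901 against 11.96. That difference was thus about as large after the moves as before them. Likeness of scores within a region was no greater either: 13.5% of the variance of log2 score lay between regions, against 13.7% ± 0.631 in the moved sets.

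Strong off-mark peaks lay in the regions more often than weak ones. Of the 100 with the highest scores, 54 lay in regions (Wilson interval 44.3 to 63.4%), where the moved sets put 37.6% ± 3.93 and at most 48%. Of the 752 with a score of 500 or more, 37.6% lay in regions, against 22.2% ± 1.37 in the moved sets. For peaks of 100 or more the shares were 25.4% and 13.6%. The ratios of deposited to moved share in these 3 sets were 1.44, 1.70 and 1.87, and for all off-mark peaks the ratio was 1.87. By this measure strong peaks were gathered no more than off-mark peaks as a whole.

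About 50% of the regions enclosed the promoter mark although none of their counted peaks touched it. An H3K4me3 peak lay inside 325 of the 628 (51.8%, Wilson interval 47.8 to 55.6%), with exactly 1 in 172, and 2 or more in 153. The share in the moved sets was 52.5% ± 2.23, and H3K4me3 peaks per Mb of region were 13.5 against 13.6 ± 0.688. Outside the regions the density of H3K4me3 peaks was 8.57 per Mb. Enclosure of the mark was therefore as frequent as in locally moved regions. The share was 26.3% in units of 5 to 9 peaks, 45% in units of 10 to 14, 56.7% in units of 15 to 19, 54.7% in units of 20 to 29 and 72.7% in units of 30 or more. The median lengths of these classes were 26.9, 50.5, 72.1, 86.3 and 135.8 kb, so longer classes had the higher share except for the 2 in the middle. Regions with the mark inside had a median length of 68.9 kb and a median peak score per region of 92.6, and regions without it 56.6 kb and 91.2.

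The region with the most H3K4me3 peaks was on chromosome 14 (7147619 to 7311130), with 9 in 163.5 kb beside 45 off-mark DLX3 peaks. Of these 9, 8 overlapped a DLX3 peak, and 2 were strong, with scores of 2350 and 1301. The next 2 named by that count were the regions on chromosomes 4 and 9 already described, with 7 each. The chromosome 16 region from 1733799 to 1937533 also had 7, ties being taken in chromosome order. Only 11 regions spanned 5 or more.

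The H3K4me3 peaks enclosed by the regions mostly had low scores. The 605 of them had a median score of 92.9 (quartiles 62.1 and 270.3), against 476.4 (quartiles 96.9 and 1895) for the 24489 elsewhere, and 50.7% of them belonged to the lowest 25% of the H3K4me3 list by score. The upper classes were not empty, and 65 of the 605 (10.7%) belonged to the highest 25%. Moved regions enclosed stronger ones, with a median score of 143.3 ± 19.1 and at least 108.8 in each of the 200 sets. Median width differed less, 1606 bp inside and 1760 bp elsewhere, and the widest inside was 8261 bp. The stitching bars an enclosed H3K4me3 peak wider than 12.5 kb, in the moved sets too.

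DLX3 peaks overlapped most of the enclosed marks. Of the 605 enclosed H3K4me3 peaks, 533 overlapped a DLX3 peak (88.1%, Wilson interval 85.3 to 90.4%), against 63.3% of those elsewhere (62.7 to 63.9%). Within that lowest 25% the shares were 84.0% (79.5 to 87.7%, 307 peaks) and 44.2% (42.9 to 45.4%). In the next class of 25% they were 91.1% and 46.3%, in the one above it 89.1% and 68.5%, and in the highest 98.5% and 93.2%. Enclosed H3K4me3 peaks were also wider in each class, 1282 against 1026 bp in the lowest, and the part of width in the overlap was not tested. The moved regions enclosed H3K4me3 peaks of which 82.5% ± 1.95 overlapped the deposited DLX3 peaks (lowest 76.8%, highest 87.5%). These were stronger H3K4me3 peaks than those in the deposited regions, and no comparison matched on score was made. The 590 DLX3 peaks on the mark inside regions had a median score of 203.6, against 139.1 for those on the mark elsewhere.

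**Figure D4:**
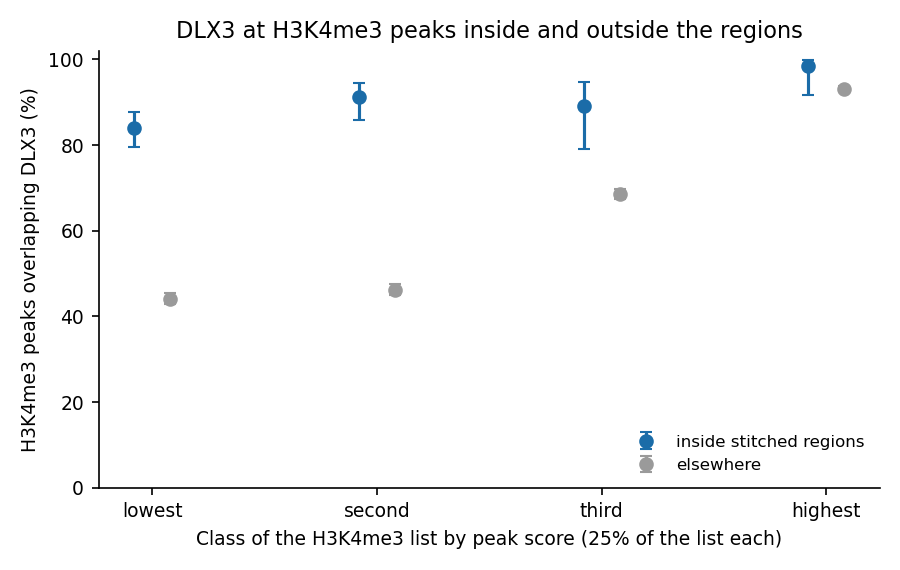
Share of H3K4me3 peaks that overlap a DLX3 peak (vertical axis, percent, with 95% Wilson intervals) in each of 4 equal classes of the H3K4me3 list by score (horizontal axis), for peaks inside the stitched regions and elsewhere. The share inside lies between 84.0 and 98.5% in each class, while elsewhere it increases from 44.2 to 93.2%.

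The 303 regions without the mark inside mostly lay close to it. The nearest H3K4me3 peak was a median of 8.78 kb away (quartiles 3.55 and 23.4 kb), within 1000 bp for 24 regions and within 10000 bp for 161. The moved sets gave a median of 12939 bp ± 1979, with the lowest at 8384 bp. The nearest H3K4me3 peak of these regions had a median score of 662.2, against 237.6 ± 75.7 in the moved sets, with the highest set at 658.5. It overlapped a DLX3 peak for 245 of the 303 (80.9%, Wilson interval 76.1 to 84.9%), against 63.3% of all H3K4me3 peaks outside the regions. By score class that outside share was 44.2, 46.3, 68.5 and 93.2%, from lowest to highest. The nearest peaks came from several classes, with score quartiles of 84.9 and 2626, and no comparison matched on score was made. For comparison, the median distance was 28114 bp for single off-mark peaks and 12592 bp for units of 5 to 9 peaks without the mark inside.

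Of the 303, 7 lay more than 100 kb from any H3K4me3 peak, with sums from 798.7 to 3159, on both sides of the median of 1862 over all regions. The farthest, on chromosome 11 (81103347 to 81166916), had 10 peaks, a sum of 798.7 and a highest score of 150.01, and the nearest H3K4me3 peak was 197.9 kb away. On chromosome 4 (230459975 to 230525332) a region with 11 peaks and a sum of 1169 lay 172.7 kb from the mark. On chromosome 19 (45254755 to 45291544) a region with 12 peaks and a sum of 1311 lay 145.9 kb from it. The other 4 of the 7 were named after their values were seen. On chromosome 14 (20465045 to 20584392) a region with 33 peaks and a sum of 2673 lay 137.7 kb away, and on chromosome 2 (132837983 to 132967341) one with 39 peaks and a sum of 3159 lay 111.0 kb away. The remaining regions, on chromosomes 19 (27948450 to 27987904) and 17 (86689349 to 86714037), had 10 peaks each and sums of 1077 and 1055. Remote regions thus included both small and large ones.

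DLX3 peaks on the mark, which the rule leaves out, were often found within or beside the regions. A DLX3 peak on H3K4me3 lay inside 297 regions, and within 12.5 kb outside an end of 404 (64.3%, Wilson interval 60.5 to 68.0%). The same share was 22.8% for single off-mark peaks and 45.7% for units of 5 to 9, and it increased within the regions from 60% with 10 to 14 peaks to 77.3% with 30 or more. In 80 regions this held for both ends. Only 148 (23.6%, Wilson interval 20.4 to 27.0%) had no DLX3 peak on the mark inside or within that distance. These shares were not computed for the moved sets. A region can also end where the rule left out a DLX3 peak on the mark, and the part of this in the shares was not tested. Seen from the mark itself, 114 regions had no H3K4me3 peak inside or within 12.5 kb.

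Regions were unevenly spread over the chromosomes. Chromosome 12 had the highest density, 0.663 regions per Mb, and the highest share of off-mark peaks in regions, 31.9% (Wilson interval 29.8 to 34.0%). It also had the most off-mark peaks per Mb, 34.3. Density of peaks did not set the share everywhere: chromosome 10 had 31.3 off-mark peaks per Mb with 20.6% in regions, and chromosome 4 had 13.1 per Mb with 26.2%. Among the autosomes the lowest share was 11.9% on chromosome 17 (10.5 to 13.5%). Chromosome X held 1 region with 10 peaks, 2.71% of its 369 off-mark peaks (1.48 to 4.92%), in a list with 2.39 off-mark peaks per Mb there. That region, at 115581486 to 115614279, was 32.8 kb long with a strongest peak of 6402 bp scoring 499.7, and it enclosed 1 H3K4me3 peak with a score of 67.5. Moved sets had 0 to 2 regions on X.

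**Figure D5:**
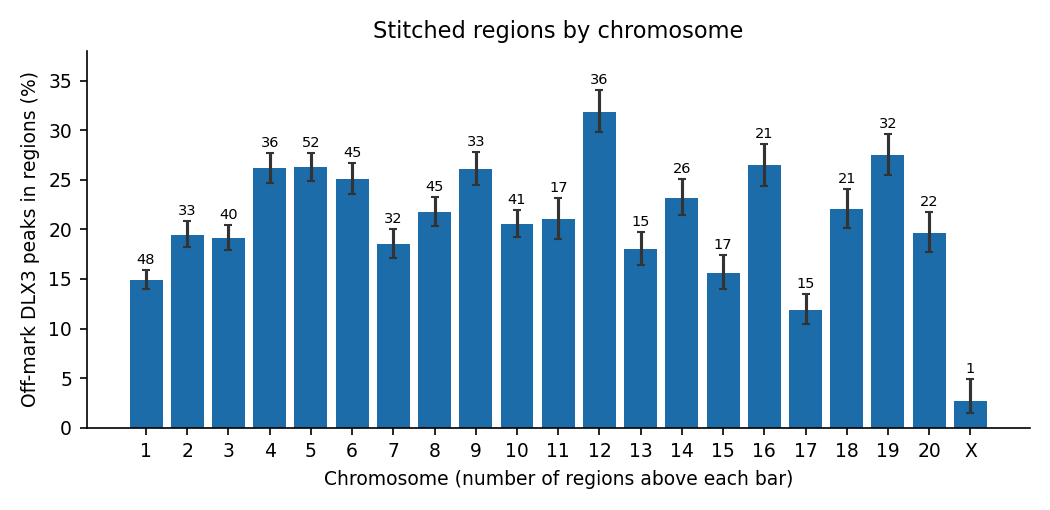
Share of each chromosome's off-mark DLX3 peaks that lie in the stitched regions (vertical axis, percent, bars with 95% Wilson intervals), by chromosome, with the number of regions above each bar. Chromosome 12 is highest at 31.9%, chromosome 17 is the lowest autosome at 11.9%, and X is at 2.71% with 1 region.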

How the data were processed

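The tools named are Bowtie 1.1.2, MACS 1.4.2 and HOMER, and the build rn5, per the submitters' processing notes. Cutoffs, and whether the input served as control, are not given in the sources used here. The authors deposited 1 peak list per ChIP library, each peak with a score whose scale no header states. The other deposited columns used are positions in rn5.

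Peaks were selected, stitched and moved in Python 3.11.15 (numpy 2.4.6; pandas 2.3.3 for summaries). Overlap meant at least 1 shared bp. A chromosome was taken to end at the last base of its last peak. The stitching recovered planted clusters when tested on simulated data, and its 22439 units and 628 regions equal those of bedtools 2.31.1. Moves were uniform, redrawn until a peak lay off H3K4me3 and within its chromosome, in 200 sets, or 50 for each alternative. They describe these lists and give no p-value.

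Named were the 10 regions of highest summed score, the 5 with most peaks, the 5 longest, the 3 spanning most H3K4me3 peaks and the 3 farthest from it. Ties were taken in order of chromosome and start. Others are named as picked after seeing values, as is the X region. The members, the rule and the comparisons were chosen with earlier results of these data known.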

Additional observations from a re-analysis of the deposited data

How the results depend on the processing

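The number of regions was 255 with gaps of at most 5000 bp, 1053 with 25000 bp, 2154 with at least 5 peaks, 161 with at least 20, 123 when DLX3 peaks below the median score were dropped, and 351 after joining peaks within 1 kb, a setting chosen after seeing the data. It stayed within 1.5 times 628 in the other 5 settings: 805 against the upper 50% of H3K4me3 peaks, 667 with under 50% coverage by the mark allowed, 574 with no H3K4me3 peak within 1 kb, 511 with peaks within 200 bp joined, and 529 with stitching broken at H3K4me3 peaks. In the order just given, the share of off-mark peaks in regions was 7.62, 39.4, 39.8, 9.64, 8.59 and 11.7%, then 24.7, 22.3, 19.9, 17.3 and 16.6%. The share of regions enclosing H3K4me3 was 11.8% with 5000 bp, 77.2% with 25000 bp, 33.8% with at least 5 peaks, 62.1% with at least 20, 58.7% with peaks within 1 kb joined, 26.7% against the upper 50% of H3K4me3 peaks, 57.6% with under 50% coverage allowed and 38.3% with none within 1 kb. With stitching broken at the mark it is 0 by construction and was not computed.

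Region number exceeded the mean of the moved sets in each of the 16 alternatives, by 1.09 to 4.20 times. The ratio was 4.20 with 5000 bp, 1.18 with 25000 bp, 1.19 with at least 5 peaks, 2.24 with at least 20, 2.59 without the DLX3 peaks of lower score, 2.77 with peaks within 1 kb joined, 1.30, 2.46 and 1.09 with moves of up to 50, 200 and 25 kb (the last added after seeing the data), and 1.21 with all DLX3 peaks moved before the rule. The cause of these movements was not tested, beyond fewer peaks or other limits entering by construction. Member peaks had the higher median score in each of 11 alternatives, by 9.84 to 32.8. No paired analysis was possible because each antibody has a single library, which also means that none could be dropped. Depth is unknown, so a gap between peaks may reflect missing reads.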
